A study of Caenorhabditis elegans with 2 samples.

Results

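The integrin attachment genes of C. elegans muscle were examined for occupancy by CEH-34, a homeodomain protein related to sine oculis of Drosophila. The genes were listed by name and known role, with earlier results of these data known, so the group is not a choice blind to the data. It holds 10 of the 19973 protein-coding genes on nuclear chromosomes. They encode the integrin receptor (pat-2, pat-3), its extracellular ligand perlecan (unc-52), the kindlin and integrin-linked kinase module (unc-112, pat-4, unc-97, pat-6), the actin linkers talin and vinculin (tln-1, deb-1) and the LIM domain protein UNC-95. For each gene, every peak summit in the gene body and 2 kb upstream was taken from the deposited lists.

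The ChIP-seq data came from 1 group of 2 biological replicates, each from its own biosample of whole hermaphrodite embryos at the late embryonic stage, collected 3.5 hours after synchronisation by bleaching. The strain was OP524, of genotype unc-119(tm4063) III; wgIs524. It stably expresses CEH-34 with a GFP-FLAG tag at its C-terminus, and chromatin was sheared by sonication and precipitated with an antibody against GFP. Neither the copy number of the transgene nor its promoter is given in the labels. There was no second condition, so there was no contrast between groups to test, and the values given are descriptions. In whole embryos, strong occupancy in few cells and weak occupancy in many cannot be told apart.

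Body wall muscle is fixed to the basement membrane at dense bodies, which anchor actin thin filaments, and at M-lines, which anchor myosin thick filaments. At both structures an alpha and a beta integrin chain span the muscle membrane, bind matrix outside the cell and recruit a cytoplasmic complex inside it. Loss of several of these genes stops embryos at the 2-fold stage with paralysed muscle, the phenotype after which the pat genes are named. CEH-34 itself is best known for its role in the neurons of the pharynx.

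Among the 10 genes, 4 carried thresholded CEH-34 summits, namely unc-112 (kindlin), pat-4 (integrin-linked kinase), unc-97 (PINCH) and pat-3 (beta integrin). Of all coding genes, 12.3% had a thresholded summit in a window of the same kind. A thresholded summit belongs to the list that the authors derived by comparing the ranking of peaks between replicates. The nuclear peaks of that list are exactly the 2490 strongest of the pooled list. Not every one recurs in both replicates: 95.5% had a counterpart within 100 bp in each. The signal of a peak is the value the authors gave it, on a scale set within each list. The 4 genes held 6 such summits, all in intergenic DNA upstream of the gene, between 380 and 1614 bp from its 5′ end, and all 6 had a counterpart within 100 bp in each replicate. No annotated gene of any kind overlapped the 6 peak intervals. The other 6 members, pat-6, pat-2, deb-1, unc-52, unc-95 and tln-1, had candidate peaks in the pooled list but no thresholded one.

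The DNA at the 6 thresholded summits is shown as a description of where they lie. Each run is written 5′ to 3′ on the strand of the gene, from the RefSeq sequence of WBcel235, the assembly with ce11 coordinates. Capitals mark GAGAGA or its reverse complement TCTCTC, and GCGTCTC.
unc-112, chrV:14697026-14697325, minus strand, with summits at bases 51 and 251: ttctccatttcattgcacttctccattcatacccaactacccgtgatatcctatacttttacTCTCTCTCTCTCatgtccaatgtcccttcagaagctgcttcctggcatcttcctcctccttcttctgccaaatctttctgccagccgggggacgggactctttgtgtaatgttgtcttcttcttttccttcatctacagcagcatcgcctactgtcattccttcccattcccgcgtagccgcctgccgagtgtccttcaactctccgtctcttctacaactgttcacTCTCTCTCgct
pat-4 proximal, chrIII:95114-95264, minus strand, with the summit at base 76: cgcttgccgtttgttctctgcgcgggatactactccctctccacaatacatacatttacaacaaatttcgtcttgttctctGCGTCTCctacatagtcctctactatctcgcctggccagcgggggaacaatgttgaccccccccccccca
pat-4 distal, chrIII:96348-96498, minus strand, with the summit at base 76: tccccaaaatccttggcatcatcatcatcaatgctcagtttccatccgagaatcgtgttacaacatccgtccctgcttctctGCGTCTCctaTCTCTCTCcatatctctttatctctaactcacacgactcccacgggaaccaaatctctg
unc-97, chrX:5591916-5592066, plus strand, with the summit at base 76: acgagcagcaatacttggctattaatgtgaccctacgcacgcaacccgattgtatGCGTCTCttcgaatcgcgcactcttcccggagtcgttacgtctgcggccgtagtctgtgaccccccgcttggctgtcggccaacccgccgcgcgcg
pat-3, chrIII:3914907-3915057, minus strand, with the summit at base 76: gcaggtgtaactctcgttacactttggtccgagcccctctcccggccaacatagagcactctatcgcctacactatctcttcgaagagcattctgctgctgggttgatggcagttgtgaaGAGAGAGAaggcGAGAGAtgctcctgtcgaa

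The runs contain GA repeats at unc-112, at the distal pat-4 summit and at pat-3. The GA repeat GAGAGA, searched on both strands within 50 bp of a summit, was present at 4 of the 6 member summits. It was present at 28.8% of all 2490 nuclear thresholded summits and at 9.48% of the 26906 other pooled candidates. Within 25 bp it was at 2 of the 6 and at 15.9% of all thresholded summits. Within 100 bp it was at 4 of the 6, beside 44.9% of all thresholded summits. The 4 were both unc-112 summits, whose peak intervals overlap, the distal pat-4 summit and the pat-3 summit. The letters GCGTCTC were looked for only after the runs had been read. They lay within 50 bp of the other 2 summits, the proximal one of pat-4 and that of unc-97, and of the distal pat-4 summit as well. That gave 3 of 6 member summits, beside 10.2% of all thresholded summits and 2.35% of other candidates. Since this string was picked from these sequences, its count is a description of them. TCTCTC can overlap the end of GCGTCTC. They did so once, 75 to 83 bp downstream of the distal pat-4 summit and past the end of the run shown. None of the 6 windows held the sine oculis core TGATAC, which was at 3.21% of all thresholded summits. None held the MEF3-type site TCAGGTT (1.53%) or the E-box CAGCTG (3.94%). With 100 bp to either side, 1 match to TGATAC appeared, 76 to 81 bp upstream of the unc-97 summit and on the opposite strand.

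unc-112 had the strongest summit of the group. It encodes UNC-112, the worm kindlin, which binds the beta integrin tail and PAT-4 and is needed for both to assemble into attachments. The gene (WBGene00006836) lies at V 14691855 to 14696654 on the minus strand. Its main summit, at V 14697075, was 421 bp upstream of the single annotated 5′ end. The pooled signal was 259, rank 163 of the 2490 thresholded peaks. In replicate 1 the matching summit had a signal of 87.7 and rank 432 of 21705, and in replicate 2 a signal of 173 and rank 75 of 23491. Both replicates thus placed it high in their lists, replicate 2 higher than replicate 1, and their summits lay 3 bp or less from the pooled one. A second summit lay 200 bp further upstream, 621 bp from the 5′ end, with a pooled signal of 97.8 and rank 1667. It ranked 4198 in replicate 1 and 1199 in replicate 2. Neighbouring summits of the pooled list were never closer than 199 bp, and 7.29% of neighbouring pairs were 199 to 210 bp apart, as the unc-112 summits were. The neighbouring gene set-5 starts on the other side of a 2311 bp intergenic region and points away from unc-112, and the nearest 5′ end to both summits was that of unc-112. The gene lies 9.37 Mb from ceh-34 on the same chromosome.

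pat-4 encodes integrin-linked kinase, the scaffold between UNC-112, UNC-97 and PAT-6. It is at III 89453 to 94809 on the minus strand (WBGene00003931). A proximal summit at III 95189 lay 380 bp upstream of its only annotated 5′ end, with a pooled signal of 129 and rank 994. The matching summits had a signal of 65.5 and rank 879 in replicate 1, and 60.5 and rank 1304 in replicate 2. A distal summit of nearly equal pooled signal, 129 and rank 989, lay at III 96423, 1614 bp upstream. Its matching summits had a signal of 49.8 and rank 1519 in replicate 1, and 78.4 and rank 768 in replicate 2. Replicate 1 thus ranked the proximal summit higher and replicate 2 the distal one. The nearest 5′ end to the distal summit, at 695 bp, belonged to C29F9.8, an upstream gene on the same strand. The summit lay 360 bp past the 3′ end of that gene, between it and pat-4.

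unc-97 encodes PINCH, a LIM domain adaptor of the kinase. It is the shortest member, at X 5593133 to 5594965 on the plus strand (WBGene00006826). Its thresholded summit at X 5591991 was 1142 bp upstream of the single 5′ end, with a pooled signal of 137 and rank 879. The replicates ranked it alike, at 923 in replicate 1 (signal 64.2) and 927 in replicate 2 (signal 72.4), and their summits lay within 2 bp of the pooled one. A weaker candidate nearer the gene, 417 bp upstream, had a pooled signal of 42.5. It ranked 4230 in replicate 1 and 23100 in replicate 2, so its place in the lists differed far more between replicates than that of the thresholded summit.

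pat-6 encodes parvin, the remaining partner in this complex, and had no thresholded summit. It lies at IV 261886 to 264232 on the minus strand (WBGene00003932). Its strongest candidate was 65 bp upstream of the 5′ end, with a pooled signal of 52.8 and rank 4600 of 29396 pooled candidates. That summit was present in both replicates, with a signal of 27.4 and rank 4639 in replicate 1 and 24.3 and rank 7215 in replicate 2. A further candidate 354 bp upstream, of signal 40.5, had a counterpart in replicate 2 alone. Of the 4 genes of the kindlin and integrin-linked kinase module, pat-6 alone was thus without a thresholded summit. Of all coding genes 12.3% had one. The share was 23.7% in the window-length range of unc-112 and pat-4, and 9.18% in that of unc-97 and pat-6.

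Of the integrin chains, the beta chain gene had a thresholded summit and the alpha chain gene had none. pat-3 encodes the sole beta chain of the worm and lies at III 3908931 to 3914149 on the minus strand (WBGene00003930). Its summit at III 3914982, 833 bp upstream, had a pooled signal of 82.1 and rank 2229, near the end of the thresholded list, whose weakest nuclear peak had a signal of 76.5. Replicate 1 had a signal of 40.7 and rank 2196, and replicate 2 had a signal of 34.9 and rank 3517, with a summit 88 bp from the pooled one. pat-2, the alpha chain that pairs with PAT-3 in muscle, lies at III 8818899 to 8825266 on the plus strand (WBGene00003929). It had a single pooled candidate in 8368 bp, intronic and 5604 bp inside the gene, with a signal of 23.8 and rank 19713. A matching summit was found in replicate 2 (rank 13227) and none within 100 bp in replicate 1. No pooled candidate fell in the 2 kb upstream of pat-2, nor in that of tln-1.

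The long genes unc-52 and deb-1 had candidates below the threshold and no thresholded one. Per kb of window they held 0.715 and 0.543 pooled candidates, beside 0.698 over all members, themselves included, and 0.304 over all coding genes. unc-52 encodes perlecan, the matrix proteoglycan to which the muscle integrin attaches, and spans II 14647321 to 14684456 on the minus strand (WBGene00006787), with 7 annotated 5′ ends. Its window held 28 pooled candidates, of which 5 were found in both replicates and 12 in neither. The strongest, 62 bp upstream of the most upstream 5′ end, had a pooled signal of 58.0 and rank 3917. It had a signal of 15.7 and rank 16006 in replicate 1, and 39.9 and rank 2751 in replicate 2. The replicates thus disagreed on its place by more than on any thresholded summit of the group. deb-1, the vinculin gene, whose product is found at dense bodies and not at M-lines, lies at IV 7085215 to 7094266 on the minus strand (WBGene00000942). It had 6 pooled candidates with signals from 23.2 to 34.03, and none was found in both replicates. Its strongest, 1482 bp upstream, was matched in replicate 2 alone, with a signal of 25.8 and rank 6350. The nearest summit of replicate 1 lay 300 bp away, with a signal of 30.7 and rank 3702. That summit matched another pooled candidate, 1187 bp upstream.

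**Figure D1:**
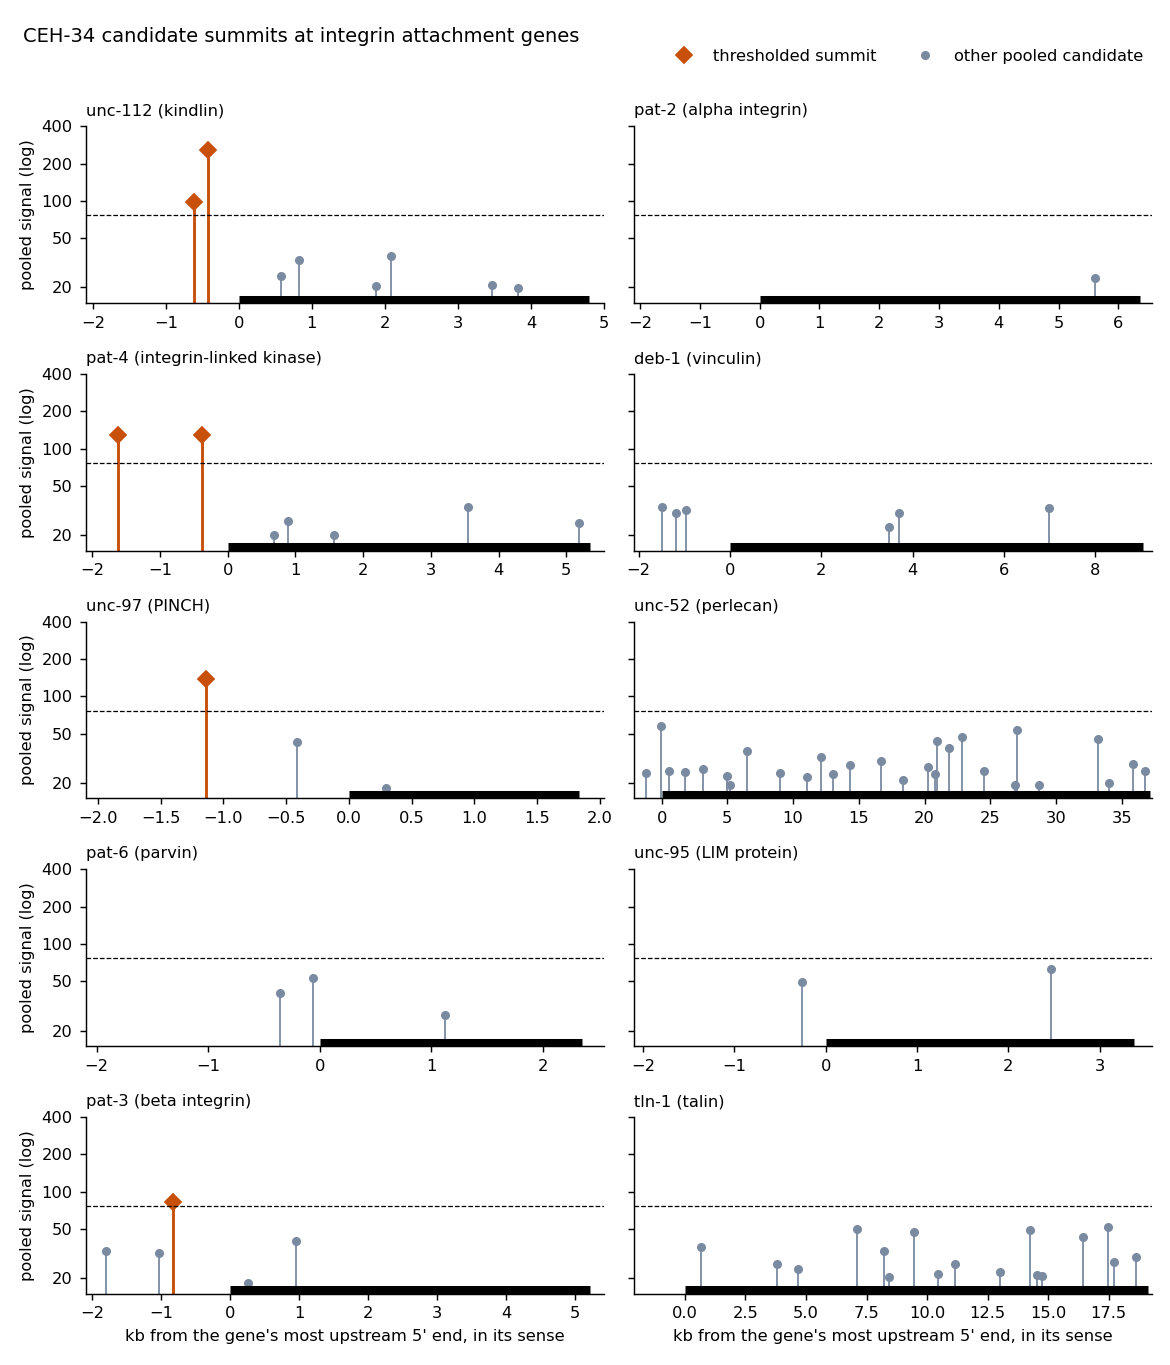
Pooled signal (vertical, log scale) of every candidate summit in the window of each member, against its distance in kb from the most upstream 5′ end, with negative values upstream. Orange diamonds are thresholded summits, blue-grey circles other pooled candidates, black bars gene bodies, and the dashed line the weakest thresholded signal (76.5). The 6 thresholded summits all lie left of a gene body.

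tln-1 and unc-95 stood higher in replicate 1 than in replicate 2. tln-1 encodes talin, which links the integrin tail to actin, and lies at I 1721590 to 1740692 on the plus strand (WBGene00006771), with 6 annotated 5′ ends. Of its 17 pooled candidates, 9 were found in replicate 1 alone, 3 in replicate 2 alone and 3 in both. The strongest, in a coding exon 1047 bp from the nearest 5′ end of the gene, had a pooled signal of 52.2. Its counterpart in replicate 1, 55 bp away, had a signal of 35.7 and rank 2815. The nearest summit of replicate 2, the strongest of tln-1 in that list, lay 140 bp away, past the 100 bp limit, with a signal of 25.6 and rank 6485. A different summit, at I 1738016, was the strongest of tln-1 in replicate 1, with a signal of 38.4 and rank 2431. The summit of replicate 2 nearest to that one lay 400 bp from it. unc-95 encodes a LIM domain protein of both attachment structures and lies at I 14381360 to 14384737 on the minus strand (WBGene00006824). An intronic candidate had the highest pooled signal of any member candidate below the threshold, 62.8, at rank 3416. In replicate 1 it had a signal of 47.2 and rank 1692. The nearest summit of replicate 2 lay 185 bp from that of replicate 1, with a signal of 17.3 and rank 14471. The promoter candidate of unc-95, 264 bp upstream with a pooled signal of 49.5, showed the opposite order, at rank 11426 in replicate 1 and 3766 in replicate 2.

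All 6 thresholded member summits had a summit within 100 bp in each replicate, beside 95.5% of the 2490 thresholded summits in all. Of the 74 other member candidates, 14 (18.9%) were found in both replicates, 23 in replicate 1 alone, 16 in replicate 2 alone and 21 in neither. Among all other pooled candidates the share found in both was 20%. The thresholded nuclear peaks are exactly the 2490 strongest of the pooled list, so these shares set strong peaks beside weaker ones. The list is also made from the replicates' rankings, so part of the agreement is built into it. When the list of a single replicate was limited to its strongest 2490 peaks, the same number as the nuclear thresholded peaks, replicate 1 gave 6 members, with unc-95 and tln-1 added to the 4, against 12.5% of all genes. Replicate 2 gave 3 members, with pat-3 dropped, against 12.0% of all genes. unc-112, pat-4 and unc-97 were in both sets.

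**Figure D2:**
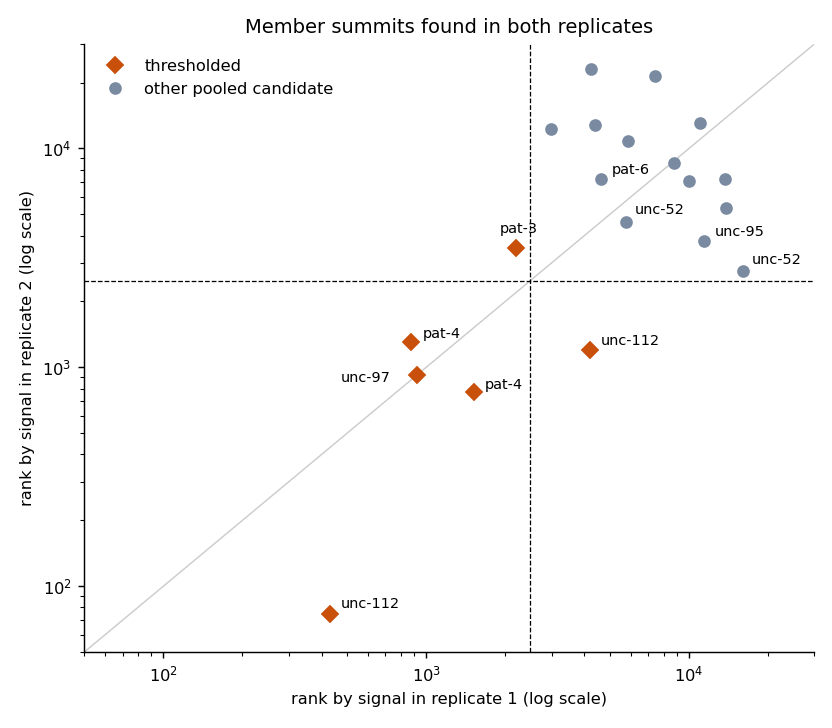
Rank by signal in replicate 1 (horizontal) and replicate 2 (vertical), both on log scales with rank 1 the strongest, for the 20 member candidates found in both replicates. Dashed lines mark rank 2490 and the grey line equal ranks. The main unc-112 summit, both pat-4 summits and that of unc-97 lie inside both dashed lines, while the second unc-112 summit and the pat-3 summit each lie inside one of them.

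The thresholded summits and the other candidates of the members lay in different places. The windows held 20 kb of upstream sequence and 94.6 kb of gene body. All 6 thresholded summits were upstream, against 11 of the 74 other candidates, and the other 63 lay in gene bodies. Over the windows of all coding genes, 70.8% of thresholded summits and 40.4% of other candidates were upstream of the gene, each summit counted once per window. The median distance to the nearest coding 5′ end was 658 bp for the 6 member summits and 737.5 bp for all thresholded summits. Only unc-112, pat-4 and pat-3, 3 of the 10, had a thresholded summit within 1 kb of a coding 5′ end, beside 8.65% of all genes. unc-97 was not among them, with its summit at 1142 bp. The member count fell with the upstream reach of the window, as did the share of all genes. With 1 kb upstream it was 3 members, beside 9.87% of all genes, and with 500 bp it was 2 members, beside 8.38%. In gene bodies alone it was 0 members, beside 3.30% of all genes. The stronger 1245 of the thresholded peaks, in the 2 kb windows, left 3 members, beside 6.61% of all genes. None of the 6 summits lay within 200 bp of a tRNA, rRNA, snRNA or snoRNA gene, beside 259 of all 2490 thresholded summits. With only 6 summits, a count of 0 does not set them apart from the list. The GC content within 50 bp of the 6 summits ran from 42.6% to 60.4%, beside 48.9% ± 7.82 (SD over 2490 thresholded summits).

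Window length bears on any count of summits per gene. The median window of the members was 7288 bp, against 4027 bp for all coding genes, and 7 of the 10 members were among the genes with windows of at least 6322 bp, which are the longest 20%. Of all genes with windows that long, 23.7% had a thresholded summit, and of the 7 members there 3 did (unc-112, pat-4, pat-3). That range runs to 104756 bp and was not divided further, while the windows of these 3 members were 6800 to 7357 bp. Of the genes with windows of 3666 to 4490 bp, 9.18% had one, and of the 2 members there unc-97 did and pat-6 did not. unc-95 had none, with a window in the range of 4491 to 6321 bp, where 12.7% of genes had one. Within the group the longest windows were not those with summits. The 4 members with a thresholded summit had windows of 3833 to 7357 bp, 25.2 kb together, and the 6 without had windows of 4347 to 39136 bp, 89.4 kb together. Candidates of any strength were denser in members' windows, at 0.698 per kb, than in the windows of all coding genes, at 0.304 per kb, with pat-2 lowest (0.120) and unc-112 highest (1.18). In the single-replicate lists the density was 0.506 per kb for members and 0.227 for all coding genes in replicate 1, and 0.454 for members and 0.245 for all coding genes in replicate 2. Of the 80 pooled candidates of the members, unc-52 held 28 and tln-1 held 17. Of these, 5 and 3 were found in both replicates. All 10 members had at least 1 pooled candidate, as did 61.2% of all genes. The median of the strongest pooled signal per gene was 60.4 over the members, 37.5 over all genes with a candidate and 47.8 over those with windows of at least 6322 bp.

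**Figure D3:**
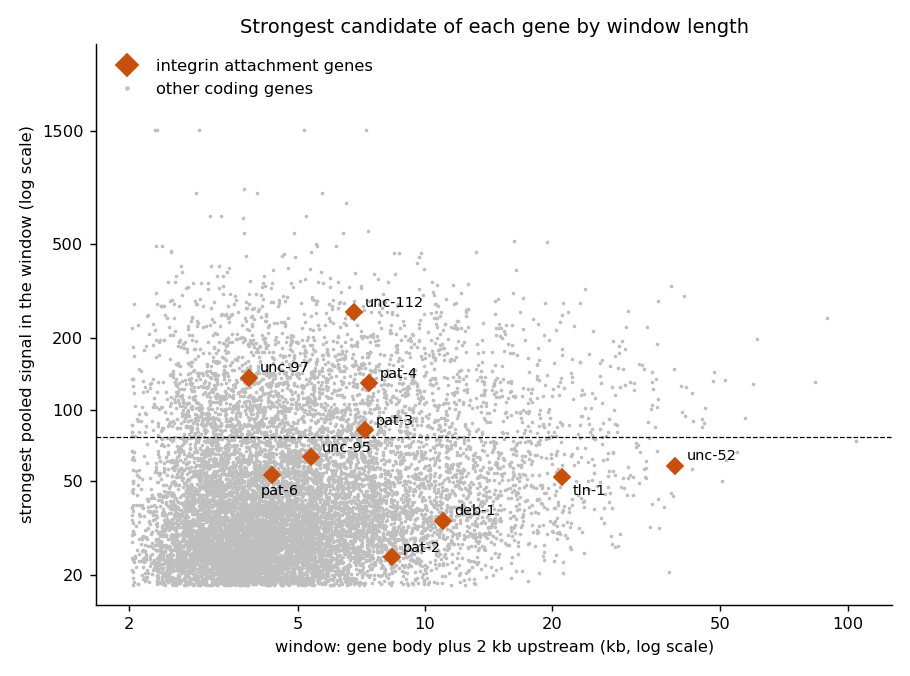
Strongest pooled signal in the window of each coding gene that has a candidate (vertical, log scale) against window length in kb (horizontal, log scale). Orange diamonds are the 10 members and grey points the other genes, and the dashed line is the weakest thresholded signal (76.5). unc-112, unc-97, pat-4 and pat-3 lie above the line at windows of 3833 to 7357 bp, and unc-52 and tln-1 lie below it at windows of 39136 and 21103 bp.

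Other genes of muscle attachment were set beside the members in 3 lists. Of 25 further genes of integrin adhesions, 10 (40.0%) had a thresholded summit in their windows, the same share as the 4 of 10 members. The strongest was at lim-9, which encodes a LIM domain protein that binds UNC-97, with a signal of 302 and rank 90 in an intron. It was followed by tns-1, the tensin gene (130, in an intron), rsu-1, a Ras suppressor gene whose mammalian product binds PINCH (123, 349 bp upstream), and kin-32, the focal adhesion kinase gene (121, 1428 bp upstream). ina-1, the gene of the other alpha integrin, had none. Of 16 genes of matrix ligands and receptors, 6 (37.5%) had one, led by him-4, the hemicentin gene (334, rank 62, in an intron), and ost-1, the SPARC gene (125, in an intron). They were followed by the type IV collagen gene let-2 (82.9, 120 bp upstream) and the agrin gene agr-1 (81.5). The agr-1 summit lay in an intron of ssup-72. The laminin genes epi-1, lam-1, lam-2 and lam-3 and the second collagen IV gene emb-9 had none, as unc-52 had none.

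Genes of the fibrous organelles, which carry muscle force across the epidermis on the far side of the basement membrane, had 3 of 9 (33.3%) with a thresholded summit. These were vab-10, the spectraplakin gene (129, in an intron), the intermediate filament gene ifa-3 (79.3) and the transmembrane receptor gene mua-3 (78.0, in a UTR of K08E5.5). The genes of these lists had longer windows than the members, with medians of 12171, 10614 and 11426 bp. Most were at least 6322 bp, a range in which 23.7% of genes had a thresholded summit. That range runs to 104756 bp, so its share is not matched in length to the lists or to the members. The medians of the strongest pooled signal were 60.4 for the members and 68.5, 69.1 and 60.5 for adhesion, matrix and fibrous organelle genes. Pooled candidates per kb of window were 0.423, 0.433 and 0.487 in these lists, beside 0.698 for the members and 0.304 for all coding genes.

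**Figure D4:**
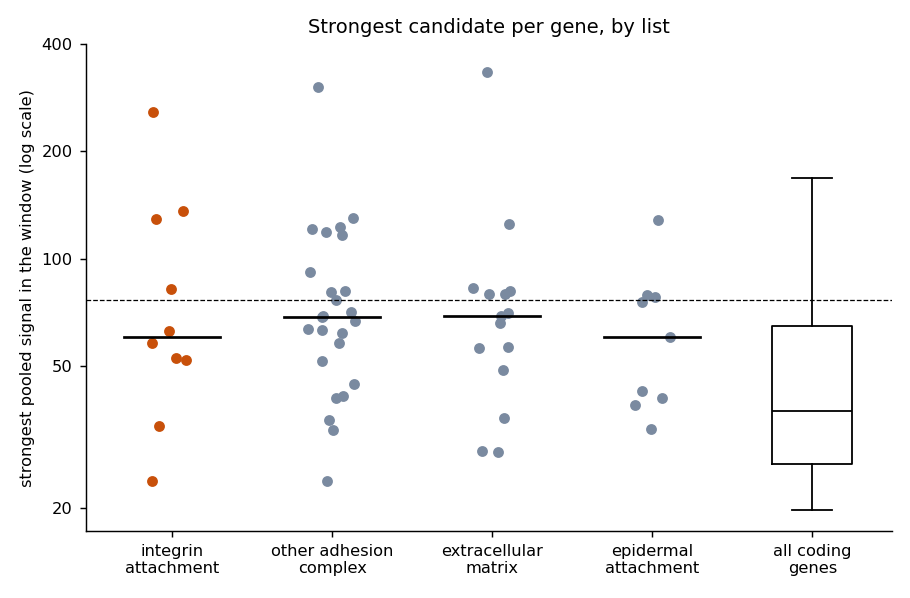
Strongest pooled signal per gene (vertical, log scale) for the members (orange) and the 3 other attachment lists (blue-grey), with each list's median as a black bar. The box for all coding genes with a candidate shows the median and quartiles, with whiskers at the 5th and 95th percentiles, and the dashed line is the weakest thresholded signal (76.5). The medians of all 4 lists, from 60.4 to 69.1, lie above that of all genes (37.5).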

How the data were processed

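ChIP-seq of tagged CEH-34 in whole late embryos was analysed from the authors' peak lists on ce11. The deposited signal value of a peak is the authors' own, on a scale set per list, and it served for ranks and description inside each list. Per the file lists deposited with the peaks, candidates and background were called for each replicate and for both alignments together, each with a control, and the thresholded list was derived from these 3 lists by the irreproducible discovery rate. Which aligner and peak caller made them is not given in the sources used here. Read depth was not analysed here, so the counting error of a signal is unknown. The control and the ce10 lists were not used.

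Summits were column 2 plus column 10, written 1-based. Genes came from Ensembl release 115 and sequence from RefSeq, both of WBcel235 (ce11 coordinates). No peak ran past a chromosome end of that assembly. Mitochondrial peaks were left out, which leaves 2490 of 2508 thresholded peaks. A window was the gene body plus 2000 bp upstream, and summits of different lists matched within 100 bp. Ranks are by signal among nuclear peaks. Shares over all coding genes use the same window. The counting functions were tested on simulated summits. Python 3.11.15 with pandas 2.3.3 and numpy 2.4.6 was used.

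All members were named, with up to 4 strongest genes of each other list and any gene whose 5′ end was nearest to a thresholded member summit. Further genes of the lists without a summit, the nearest neighbour genes and host genes were chosen for naming once their values had been seen. The members and lists were chosen with earlier results of these data known. Alternatives changed the window, the threshold, the matching distance, the replicate and the motif width.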

Additional observations from a re-analysis of the deposited data

How the results depend on the processing

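The count of 4 members with a thresholded summit was 3 with 1000 bp upstream (unc-97 dropped; 9.87% of all genes), 2 with 500 bp (unc-112 and pat-4; 8.38%) and 0 in gene bodies alone (3.30%). Their 6 summits numbered 2 with 500 bp upstream and 0 in gene bodies. The stronger 1245 of the thresholded peaks left 3 members, without pat-3, beside 6.61% of all genes. With the list of a single replicate, its strongest 2490 peaks in place of the thresholded ones, there were 3 to 6 members and 5 to 7 summits. Replicate 1 gave the 6 members, beside 12.5% of all genes, and replicate 2 the 3, beside 12.0%. Whole single-replicate lists held 0.454 to 0.506 candidates per kb, against 0.698 in the pooled list, which holds more peaks than either. Over all coding genes the densities were 0.227 to 0.245 in the single-replicate lists and 0.304 in the pooled list. Within 1000 bp of a coding 5′ end, 3 of 16 matrix and 1 of 9 fibrous organelle genes kept a summit. So did 8 of 25 further adhesion genes, beside 8.65% of all genes. In the whole window the counts were 6, 3 and 10, beside 12.3% of all genes. A match distance of 50 bp left 5 of the 6 summits in both replicates, without that of pat-3. No paired analysis was possible because there was 1 group. Unknown read depth limits how firmly any rank difference can be read.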
